A study of Mus musculus with 24 samples.

Results

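TRAIL decoy and death receptors were followed here as 8 genes of the tumour necrosis factor (TNF) family in mouse liver: the decoy receptors Tnfrsf22 and Tnfrsf23, the TRAIL death receptor Tnfrsf10b, the TRAIL ligand Tnfsf10, the Fas receptor, the TNF receptors Tnfrsf1a and Tnfrsf1b, and the TWEAK receptor Tnfrsf12a. The list was chosen with earlier results of these data known. Its genes were taken by exact gene symbol from the deposited table and are 8 of the 21144 genes tested. Each has 1 probe set. Liver RNA of 24 mice was hybridised to Affymetrix arrays, 1 per mouse, and the 8 groups held 3 mice each. In the CCl4 experiment, N-RAS-/- and N-RAS+/+ mice received CCl4, a chemical hepatotoxin, or corn oil in 2 injections per week for 4 weeks. In the other experiment, mice of either genotype had bile duct ligation (BDL), which blocks bile flow, or a sham operation, and were killed on day 28. All mice were labelled male, 8 to 10 weeks old at inclusion and randomly assigned, and both genotypes were bred on the C57BL/6J background. The N-RAS-/- mice lack N-RAS in the whole body, so that the liver cell type in which its loss acts is not set by the design.

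TRAIL, FasL and TNF are ligands that can start apoptosis through receptors with an intracellular death domain. In hepatocytes Fas is the death receptor best known for lethal liver injury, TNF signals through Tnfrsf1a to survival or death, and TRAIL acts through Tnfrsf10b, the only TRAIL receptor with a death domain in mice. Mouse Tnfrsf22 and Tnfrsf23 bind TRAIL but lack a death domain and are therefore called decoys, and Tnfrsf12a (Fn14), also without a death domain, is induced in injured liver and linked to progenitor cell and fibrotic responses.

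Values are log2 signals as deposited, so that a difference of 1 is a doubling, and levels are compared between arrays but not between genes. Differences were tested with limma, p values were adjusted by Benjamini and Hochberg over all 21144 genes, and a gene was called higher or lower at an adjusted p under 0.05. Array medians lay between 5.55 and 5.70. Nras, the deleted gene, had log2 signals of 4.55 to 5.55 on N-RAS-/- arrays and 5.92 to 8.04 on N-RAS+/+ arrays, without overlap. Against the label of male mice, 6 arrays had low signals of 4 Y-linked genes (mean log2 3.0 to 3.59, against 6.84 to 8.25 on the other arrays). These were 5 of the 6 sham arrays, including all 3 of N-RAS-/- mice, and N-RAS-/- oil array N28. The summed linear signal of 4 of the 5 female-biased liver markers (Xist was not tested) was 284 to 356 in N-RAS-/- BDL livers and 12149 to 14826 in N-RAS-/- sham livers, against 1629 to 3607 after BDL and 238 to 12830 after sham surgery in N-RAS+/+ mice. It was 197 to 1175 with CCl4 and 233 to 11392 with oil in N-RAS-/- livers, and 157 to 176 with CCl4 and 179 to 259 with oil in N-RAS+/+ livers. BDL minus sham in N-RAS-/- livers and the difference in these sex-related signals cannot be told apart. Skeletal muscle Acta1 was at 10.88 on N-RAS-/- BDL array N12 and at most 5.10 elsewhere. The nature of the replicates beyond 1 mouse per array is not given, and fewer cells of a type and less RNA per cell cannot be told apart in whole liver.

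Sequences upstream of the transcription start (RefSeq, GRCm38.p6) were found for 6 of the 8 genes (all but Tnfrsf22 and Tnfrsf10b), and 3 are shown because Tnfrsf23 and Tnfrsf12a had the largest rises of the 8 genes and Fas differed between genotypes. Each is the 250 bases before the start, 5′ to 3′ on the gene's strand, at chr7:143685876-143686125 (minus strand) for Tnfrsf23, chr17:23677450-23677699 (minus strand) for Tnfrsf12a and chr19:34290409-34290658 (plus strand) for Fas. Capitals mark matches, on either strand, to AP-1 (TGANTCA), to the cyclic AMP response element core, CRE (TGACGT), or to a loose NF-kB pattern (GGGNNNNNCC).
Tnfrsf23: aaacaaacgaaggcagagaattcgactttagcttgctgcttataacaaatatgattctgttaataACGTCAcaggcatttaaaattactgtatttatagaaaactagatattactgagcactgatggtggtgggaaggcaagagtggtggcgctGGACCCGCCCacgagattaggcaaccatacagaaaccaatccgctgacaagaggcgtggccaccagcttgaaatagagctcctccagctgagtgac
Tnfrsf12a: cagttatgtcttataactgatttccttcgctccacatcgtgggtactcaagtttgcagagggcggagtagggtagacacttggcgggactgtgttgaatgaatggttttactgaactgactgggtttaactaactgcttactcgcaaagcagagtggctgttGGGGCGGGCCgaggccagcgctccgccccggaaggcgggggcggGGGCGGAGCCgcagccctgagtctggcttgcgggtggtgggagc
Fas: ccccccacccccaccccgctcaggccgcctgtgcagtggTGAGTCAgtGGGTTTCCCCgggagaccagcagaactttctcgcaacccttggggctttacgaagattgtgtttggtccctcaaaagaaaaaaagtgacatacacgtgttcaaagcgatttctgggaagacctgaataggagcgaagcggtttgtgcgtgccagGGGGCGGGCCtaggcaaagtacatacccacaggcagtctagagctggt

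The Tnfrsf23 window holds the CRE core on the reverse strand, with its first base at -185, and an NF-kB pattern at -96. In Tnfrsf12a the NF-kB pattern starts at -88 and at -44. The Fas window has the AP-1 letters at -211 and the NF-kB pattern at -202 and -48. Of all 32851 promoter windows of this length, 6.75% held the AP-1 letters, 6.47% the CRE core and 45.8% the NF-kB pattern. A p53 half-site was in 7.13% of all windows and in none of the 6. The letters were not tested for binding.

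CCl4 raised both decoy receptors in both genotypes, Tnfrsf23 by 12.1-fold in N-RAS-/- livers and 14.7-fold in N-RAS+/+ livers, and neither was called with BDL. Tnfrsf12a rose with either injury in both genotypes. The TRAIL death receptor Tnfrsf10b was called higher with BDL in both and with CCl4 in N-RAS+/+ livers. In N-RAS-/- livers its difference with CCl4, 0.59, missed the threshold (limma adjusted p = 0.0647). The CCl4 responses of Tnfrsf10b were not called different between genotypes (limma adjusted p = 0.40). Fas fell with CCl4 in N-RAS-/- livers and was there 2.07-fold lower than in N-RAS+/+ livers. After CCl4, 3 of the 8 genes were called higher and 1 lower in N-RAS-/- livers. Of all genes, 13.6% were called higher and 9.19% lower there (22.8% in all). In N-RAS+/+ livers 5 of the 8 were called higher, against 8.08% of all genes (15.2% in either direction), and none was called lower. The plot of signals by group shows all values.

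**Figure D1:**
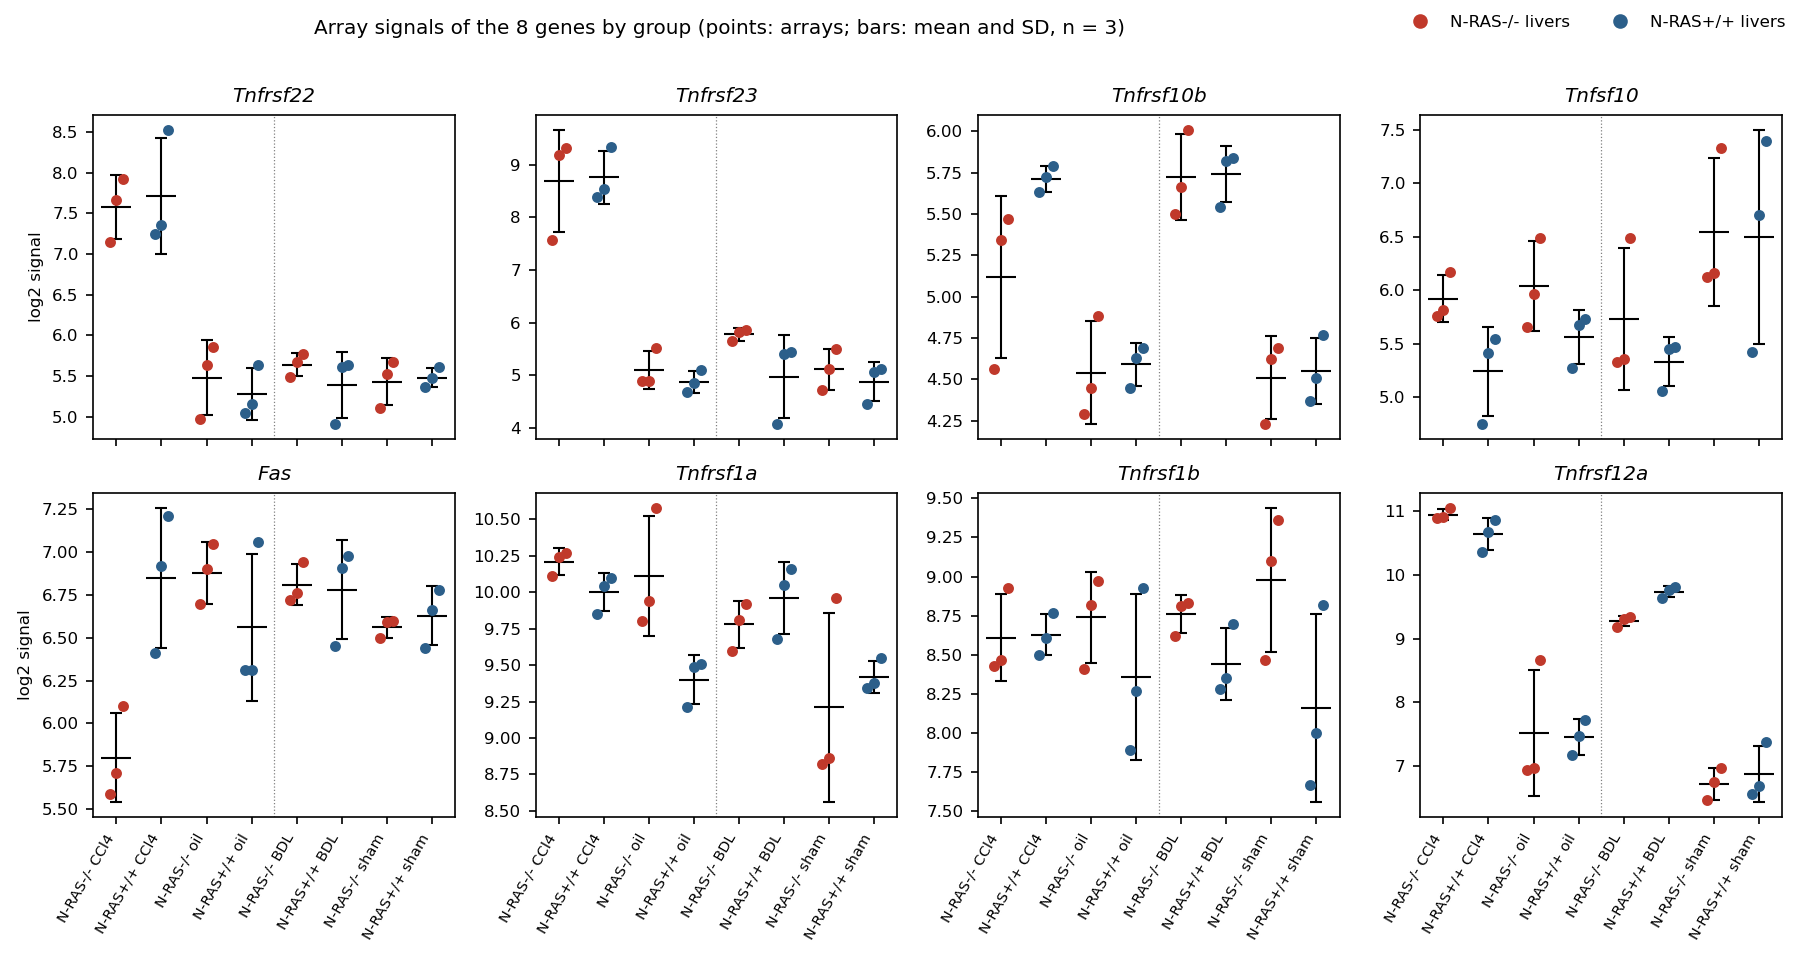
Log2 signals (vertical axes, each gene on its own scale) of the 8 genes in the 8 groups (horizontal axes), with 1 point per array and bars for the mean and SD (n = 3). Tnfrsf22 and Tnfrsf23 are high in the CCl4 groups alone, and Tnfrsf12a is high with CCl4 and with BDL in both genotypes. Tnfrsf10b is high with BDL in both and with CCl4 in the N-RAS+/+ group. Its N-RAS-/- CCl4 mean lies between these groups and the controls. Fas is lowest in the N-RAS-/- CCl4 group, at 5.59 to 6.10.

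Tnfrsf23 had log2 signals of 9.32, 9.19 and 7.58 in N-RAS-/- CCl4 livers and 4.90, 4.90 and 5.52 in N-RAS-/- oil livers. In N-RAS+/+ mice they were 8.38, 9.34 and 8.55 with CCl4 and 4.85, 5.11 and 4.69 with oil. Every CCl4 array thus lay above every oil array, and N-RAS-/- array N32 was the lowest of the CCl4 arrays. The log2 difference was 3.59 ± 0.37 (SE, 12.1-fold, limma adjusted p = 6.99e-06) in N-RAS-/- livers and 3.87 ± 0.37 (14.7-fold, limma adjusted p = 7.93e-06) in N-RAS+/+ livers. The oil signals, 4.69 to 5.52, were below the array medians, and no detection call was used, so that these folds rest on dim controls.

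Tnfrsf22 had log2 signals of 7.66, 7.92 and 7.15 in N-RAS-/- CCl4 livers and 5.86, 5.63 and 4.97 in N-RAS-/- oil livers. In N-RAS+/+ mice they were 7.35, 8.53 and 7.25 with CCl4 and 5.15, 5.64 and 5.04 with oil. CCl4 and oil arrays did not overlap, and N-RAS+/+ array N25 was the highest for both decoys. The rise was 2.09 ± 0.32 on the log2 scale (4.26-fold, limma adjusted p = 2.52e-04) in N-RAS-/- livers. In N-RAS+/+ livers it was 2.43 ± 0.32 (5.41-fold, limma adjusted p = 1.29e-04).

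No difference between the genotypes was called for either decoy after CCl4. N-RAS-/- minus N-RAS+/+ was -0.13 ± 0.32 for Tnfrsf22 (limma adjusted p = 0.827) and -0.061 ± 0.37 for Tnfrsf23 (limma adjusted p = 0.935). With these standard errors a modest genotype difference in either direction would go undetected. The difference between the genotypes' responses to CCl4 was -0.34 ± 0.45 for Tnfrsf22 and -0.28 ± 0.53 for Tnfrsf23 (limma adjusted p = 0.759 and 0.837).

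With BDL, Tnfrsf22 had 5.49, 5.77 and 5.67 in N-RAS-/- BDL livers and 5.67, 5.11 and 5.53 in N-RAS-/- sham livers. The N-RAS+/+ livers had 4.91, 5.64 and 5.61 after BDL and 5.61, 5.47 and 5.36 after sham surgery. These groups overlapped in both genotypes, and BDL minus sham was 0.21 ± 0.20 in N-RAS-/- livers and -0.095 ± 0.20 in N-RAS+/+ livers (limma adjusted p = 0.592 and 0.871). Tnfrsf23 had 5.86, 5.65 and 5.83 in N-RAS-/- BDL livers and 5.51, 5.12 and 4.73 in N-RAS-/- sham livers, against 4.08, 5.41 and 5.45 after BDL and 5.12, 5.06 and 4.45 after sham surgery in N-RAS+/+ mice. The N-RAS-/- BDL arrays lay above all other arrays of the BDL experiment, yet neither BDL minus sham (0.66 ± 0.32, limma adjusted p = 0.226) nor N-RAS-/- minus N-RAS+/+ after BDL (0.80 ± 0.32, limma adjusted p = 0.333) was called. Without N-RAS+/+ BDL array N04, at 4.08, the difference between genotypes was 0.35 (limma adjusted p = 0.667).

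The CCl4 response was then set against the BDL response in a fit of all 24 arrays. In N-RAS-/- livers the CCl4 response exceeded the BDL response by 1.88 ± 0.41 for Tnfrsf22 (limma adjusted p = 0.00467) and by 2.93 ± 0.54 for Tnfrsf23 (limma adjusted p = 0.00102). In N-RAS+/+ livers the excess was 2.53 ± 0.41 for Tnfrsf22 (limma adjusted p = 7.19e-04) and 3.77 ± 0.54 for Tnfrsf23 (limma adjusted p = 1.89e-04). Including Fas, this difference of responses was called for 3 of the 8 genes in N-RAS-/- livers, 2 higher (4.4% of all genes) and 1 lower (4.74%; 9.15% in either direction), and for the 2 decoys in N-RAS+/+ livers, both higher (1.4% of all genes; 2.97% in either direction). The 2 experiments used different procedures, controls and mice, and 5 of 6 sham arrays were low in Y-linked signal, so that injury type and experiment cannot be told apart. With the arrays of low Y-linked signal left out, N02 was the only N-RAS+/+ sham array that remained. Against it the excess in N-RAS+/+ livers was 2.52 for Tnfrsf22 and 3.95 for Tnfrsf23. The excess in N-RAS-/- livers could not be fitted in this way, because all N-RAS-/- sham arrays were low in Y-linked signal.

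**Figure D2:**
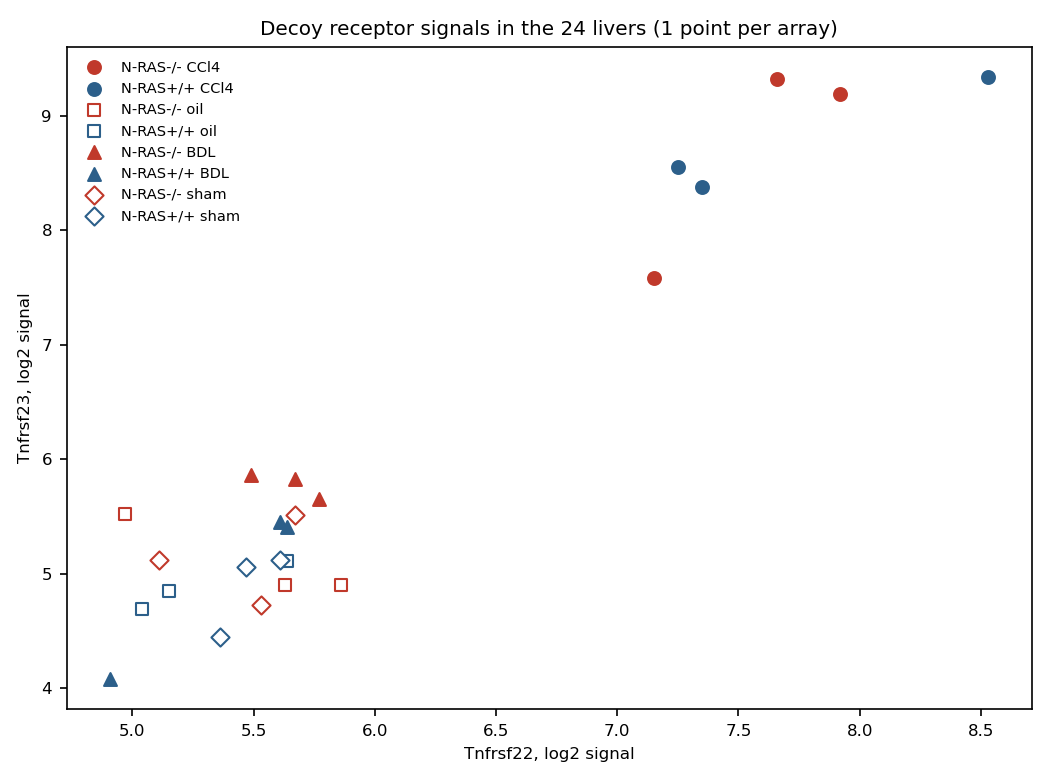
Log2 signal of Tnfrsf23 (vertical axis) against Tnfrsf22 (horizontal axis), 1 point per array, with red for N-RAS-/- and blue for N-RAS+/+ livers. The 6 CCl4 arrays stand apart from the other 18, where Tnfrsf22 stays at or below 5.86 and Tnfrsf23 at or below 5.86.

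The decoys followed each other from liver to liver: Pearson's r was 0.957 over the 24 arrays, mostly set by the gap between CCl4 and all other arrays, and 0.58 for deviations from the group means. The arrays share hybridisation and normalization, and signal shared between the probe sets of these related genes was not tested. The 4 other genes whose pattern over the arrays was most like that of Tnfrsf22 were Slc3a2 (r = 0.943), Mmp13 (0.933), Slfn4 (0.931) and Neo1 (0.928). For Tnfrsf23 they were Mmp13 (0.957), Slc3a2 (0.956), Zfand2a (0.949) and Hid1 (0.946). Slc3a2, the heavy chain of amino acid transporters, was higher with CCl4 by 1.52 in N-RAS-/- livers and 1.44 in N-RAS+/+ livers, and Mmp13, an interstitial collagenase, by 2.64 in N-RAS-/- livers and 3.28 in N-RAS+/+ livers. These were chosen for their likeness, and the values are a description.

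Tnfrsf22 and Tnfrsf23 lie side by side on chromosome 7, next to the related receptor gene Tnfrsf26. In the order of the GRCm38.p6 annotation the genes run Nap1l4, Cars, Tnfrsf26, Tnfrsf22, Tnfrsf23, Osbpl5, Mrgprg and Mrgpre. Among the 6 neighbours, none was called with CCl4 in N-RAS+/+ livers, where their differences ran from -0.11 (Mrgprg) to 0.40 (Mrgpre). Tnfrsf26 itself differed by 0.28 ± 0.16 in N-RAS-/- livers and -0.068 ± 0.16 in N-RAS+/+ livers (limma adjusted p = 0.238 and 0.844).

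In N-RAS-/- livers CCl4 raised Nap1l4, a histone chaperone gene, by 0.75 ± 0.14 (limma adjusted p = 0.00128) and Cars, the cysteinyl-tRNA synthetase gene, by 0.88 ± 0.18 (limma adjusted p = 0.00223). After CCl4, Tnfrsf26 was at 5.90 to 5.93 in N-RAS-/- livers, against 5.21 to 5.62 in N-RAS+/+ livers, and was called higher by 0.54 ± 0.16 (limma adjusted p = 0.0324). The large rise was thus measured for 2 adjacent genes, and the difference in rise between them and their neighbours was not tested.

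**Figure D3:**
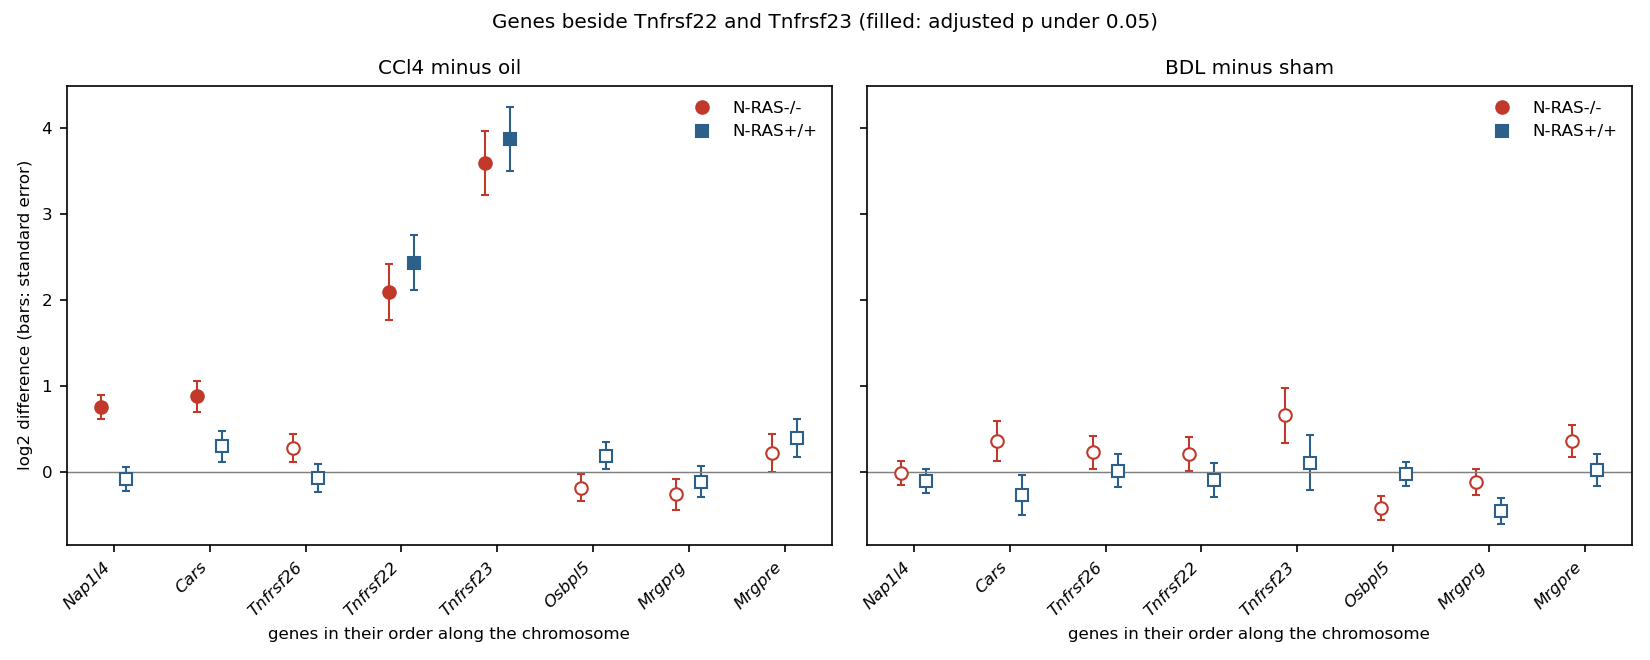
Log2 differences with standard errors (vertical axis) for the 8 genes in chromosome order (horizontal axis), CCl4 minus oil on the left and BDL minus sham on the right; red circles are N-RAS-/- and blue squares N-RAS+/+ livers, filled where the adjusted p was under 0.05. Tnfrsf22 and Tnfrsf23 stand at 2.09 to 3.87 with CCl4, against at most 0.88 among their neighbours, and nothing was called with BDL.

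Tnfrsf10b, the TRAIL death receptor, rose with BDL in both genotypes and with CCl4 in N-RAS+/+ livers. Its log2 signals were 5.66, 6.01 and 5.50 in N-RAS-/- BDL livers and 4.69, 4.62 and 4.23 in N-RAS-/- sham livers. The N-RAS+/+ livers had 5.54, 5.82 and 5.84 after BDL and 4.51, 4.37 and 4.77 after sham surgery. All 6 BDL arrays lay above all 6 sham arrays. BDL minus sham was 1.21 ± 0.18 (2.31-fold, limma adjusted p = 5.20e-04) in N-RAS-/- livers and 1.18 ± 0.18 (2.27-fold, limma adjusted p = 8.76e-04) in N-RAS+/+ livers. It was, with Tnfrsf12a, 1 of 2 genes of the 8 called with BDL in each genotype, both higher. Of all genes, 7.18% were called higher in N-RAS-/- livers (11.2% in either direction) and 4.51% in N-RAS+/+ livers (7.21%). Only 1 N-RAS+/+ sham array had normal Y-linked signal. Against it alone, its spread taken from the other groups, the rise in N-RAS+/+ livers was 1.37 (limma adjusted p = 0.031), and the same comparison could not be fitted in N-RAS-/- mice, whose 3 sham arrays were all low in Y-linked signal.

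With CCl4, Tnfrsf10b had 5.47, 4.56 and 5.34 in N-RAS-/- CCl4 livers and 4.45, 4.29 and 4.88 in N-RAS-/- oil livers, against 5.72, 5.63 and 5.79 with CCl4 and 4.45, 4.63 and 4.69 with oil in N-RAS+/+ mice. The N-RAS+/+ groups did not overlap, whereas N-RAS-/- CCl4 array N31 (4.56) lay within the oil arrays. CCl4 minus oil was not called in N-RAS-/- livers (0.59 ± 0.22, limma adjusted p = 0.0647) but was called in N-RAS+/+ livers (1.12 ± 0.22, 2.18-fold, limma adjusted p = 0.00249). In N-RAS-/- livers it was 0.87 without array N31 (limma adjusted p = 0.00489) and 0.76 without oil array N29 (limma adjusted p = 0.0302), both called. The difference between these responses was -0.54 ± 0.30 (limma adjusted p = 0.40), and N-RAS-/- minus N-RAS+/+ after CCl4 was -0.59 ± 0.22 (limma adjusted p = 0.0813). Neither was called, although all N-RAS-/- CCl4 arrays were below all N-RAS+/+ CCl4 arrays. Without N31 they were -0.26 (limma adjusted p = 0.659) and -0.31 (limma adjusted p = 0.308), and without N30 the second was -0.76 (limma adjusted p = 0.05). After BDL the genotypes differed by -0.013 ± 0.18.

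Tnfsf10, the TRAIL ligand, was called in no comparison. Its signals were 5.76, 5.81 and 6.17 in N-RAS-/- CCl4 livers and 4.75, 5.41 and 5.54 in N-RAS+/+ CCl4 livers. These arrays did not overlap, but the difference, 0.68 ± 0.24, missed the threshold (limma adjusted p = 0.0709; 0.44 and 0.264 without N-RAS+/+ array N24, at 4.75). The oil livers had 6.49, 5.96 and 5.66 in N-RAS-/- and 5.67, 5.27 and 5.73 in N-RAS+/+ mice, and CCl4 minus oil was -0.12 ± 0.24 and -0.32 ± 0.24 in these genotypes.

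After BDL, Tnfsf10 had 5.36, 5.33 and 6.49 in N-RAS-/- livers and 5.45, 5.06 and 5.47 in N-RAS+/+ livers. After sham surgery it had 6.16, 6.12 and 7.33 in N-RAS-/- and 7.39, 5.42 and 6.70 in N-RAS+/+ livers. The N-RAS+/+ sham arrays thus spread from 5.42 to 7.39, and the groups overlapped. BDL minus sham was -0.81 ± 0.45 (limma adjusted p = 0.309) in N-RAS-/- and -1.18 ± 0.45 (limma adjusted p = 0.155) in N-RAS+/+ livers. Sham array N02, at 5.42, was the 1 N-RAS+/+ sham array with normal Y-linked signal; without it the difference was -1.72 (limma adjusted p = 0.0158), and against it alone -0.088 (limma adjusted p = 0.968). The sham arrays of low Y-linked signal in this group, N01 and N03, were the ones at 7.39 and 6.70, and the part of that signal in the difference was not tested.

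Fas was the 1 gene of the 8 called between the genotypes after CCl4 (5.56% of all genes were called lower in this comparison and 14.3% in either direction). Its log2 signals were 5.59, 6.10 and 5.71 in N-RAS-/- CCl4 livers and 7.21, 6.92 and 6.41 in N-RAS+/+ CCl4 livers. N-RAS-/- oil livers had 7.05, 6.70 and 6.90, and N-RAS+/+ oil livers 6.31, 6.31 and 7.06. The 3 N-RAS-/- CCl4 arrays were the lowest of all 24. N-RAS-/- minus N-RAS+/+ after CCl4 was -1.05 ± 0.23 (2.07-fold lower, limma adjusted p = 0.00833), and it was called without each of the 6 arrays in turn (limma adjusted p at most 0.04). With the methods' t-test after adjustment it was not called.

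In N-RAS-/- livers Fas fell by 1.08 on the log2 scale with CCl4 (-1.08 ± 0.23, 2.12-fold lower, limma adjusted p = 0.00346), against 0.29 ± 0.23 in N-RAS+/+ livers (limma adjusted p = 0.493). The responses differed by -1.37 ± 0.33 (limma adjusted p = 0.0435), the 1 such call among the 8 genes (1.04% of all genes were called lower and 2.36% in either direction). This last call was lost without any 1 of 8 of the 12 arrays (limma adjusted p up to 0.101) and with signals floored at 32 (0.129), although the difference stayed between -1.62 and -1.19 with 1 array left out. Without oil array N28, of low Y-linked signal, Fas fell by 1.18 in N-RAS-/- livers (limma adjusted p = 0.00529), and the responses differed by -1.47 (limma adjusted p = 0.0434). After oil the genotypes differed by 0.33 ± 0.23 (limma adjusted p = 0.632), and no gene of the 8 was called there (0.847% of all genes).

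After BDL, Fas had 6.76, 6.72 and 6.94 in N-RAS-/- and 6.91, 6.98 and 6.45 in N-RAS+/+ livers. The sham livers had 6.50, 6.59 and 6.6 in N-RAS-/- and 6.78, 6.44 and 6.66 in N-RAS+/+ mice. The N-RAS+/+ groups overlapped, and the N-RAS-/- BDL arrays lay just above the sham arrays. BDL minus sham was 0.24 ± 0.16 in N-RAS-/- livers and 0.15 ± 0.16 in N-RAS+/+ livers, neither called. In N-RAS-/- livers the CCl4 response of Fas was below its BDL response by 1.33 (-1.33 ± 0.29, limma adjusted p = 0.00531). In N-RAS+/+ livers this difference was 0.14 ± 0.29 (limma adjusted p = 0.901). Injury type and experiment cannot be told apart here, and all N-RAS-/- sham arrays were low in Y-linked signal. Fasl, the ligand of Fas, differed by -0.53 with CCl4 in N-RAS-/- livers and 0.049 in N-RAS+/+ livers (limma adjusted p = 0.131 and 0.932). Its signals were below the array medians in every group, so that these values rest on dim signals.

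Markers of some other cells differed between the same CCl4 groups. The summed linear signal of 5 T cell markers was 205 to 250 in N-RAS-/- livers and 110 to 127 in N-RAS+/+ CCl4 livers. The 5 stellate cell and myofibroblast markers summed to 764 to 1131 in N-RAS-/- livers and 486 to 722 in N-RAS+/+ livers, and the 5 bile duct markers to 823 to 1267 in N-RAS-/- livers and 1553 to 2380 in N-RAS+/+ livers. The 5 hepatocyte markers overlapped, at 34687 to 35462 in N-RAS-/- livers and 34732 to 36607 in N-RAS+/+ CCl4 livers. Kupffer cell markers overlapped too, at 1389 to 1868 in N-RAS-/- livers and 1381 to 1589 in N-RAS+/+ CCl4 livers. So did the markers of monocytes and infiltrating macrophages, neutrophils, sinusoidal endothelium, B cells and NK cells. The part of these cells in the Fas difference was not tested.

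**Figure D4:**
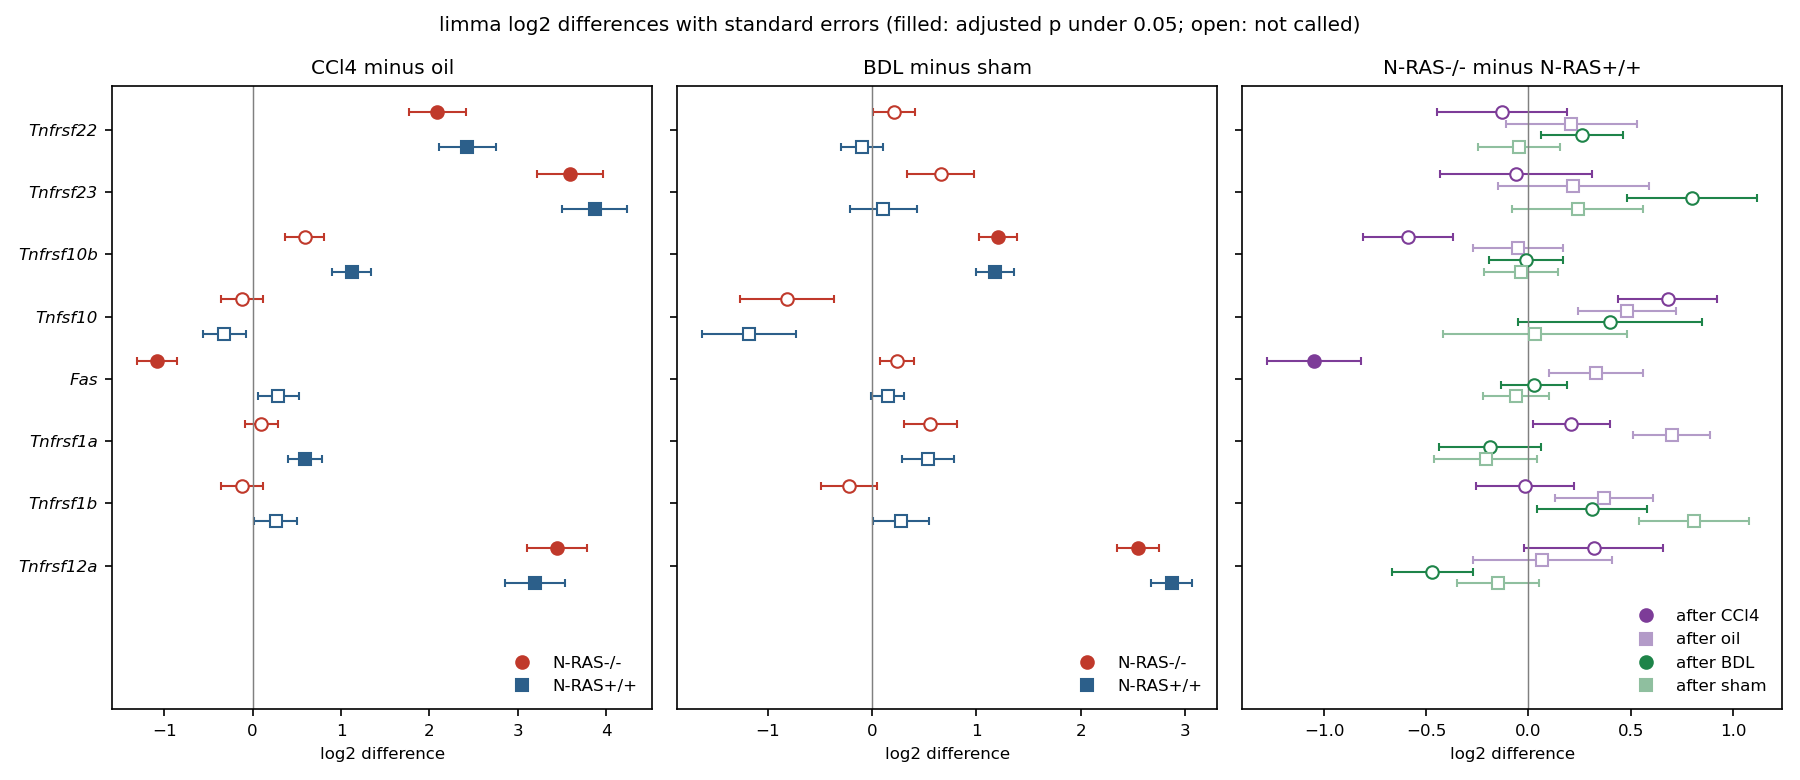
Log2 differences (horizontal axes) with standard errors for the 8 genes (rows): CCl4 minus oil, BDL minus sham, and N-RAS-/- minus N-RAS+/+ within each treatment; filled symbols have a limma adjusted p under 0.05. In the genotype panel Fas after CCl4, at -1.05, is the 1 filled symbol.

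Tnfrsf1a, the TNF receptor with a death domain, had 10.24, 10.11 and 10.27 in N-RAS-/- CCl4 livers and 9.80, 9.94 and 10.58 in N-RAS-/- oil livers. In N-RAS+/+ mice it had 10.10, 10.04 and 9.85 with CCl4 and 9.51, 9.21 and 9.49 with oil. The N-RAS-/- groups overlapped and the N-RAS+/+ groups did not. CCl4 minus oil was 0.10 ± 0.19 in N-RAS-/- livers (limma adjusted p = 0.761) and 0.59 ± 0.19 in N-RAS+/+ livers (1.51-fold, limma adjusted p = 0.0433). The second call was lost without each of the 6 arrays in turn (limma adjusted p from 0.0584 to 0.159). The difference between the genotypes' responses, -0.49 ± 0.26, was not called (limma adjusted p = 0.366). The oil livers themselves differed by 0.70 ± 0.19 in N-RAS-/- minus N-RAS+/+, without overlap but not called (limma adjusted p = 0.103; 0.47 and 0.302 without N29).

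With BDL, Tnfrsf1a had 9.81, 9.92 and 9.60 in N-RAS-/- livers and 9.68, 10.16 and 10.05 in N-RAS+/+ livers, against 9.96, 8.82 and 8.86 in N-RAS-/- and 9.38, 9.34 and 9.55 in N-RAS+/+ sham livers. Sham array N07, at 9.96, was apart from its group. BDL minus sham was 0.56 ± 0.25 in N-RAS-/- livers (limma adjusted p = 0.185; 0.94 and 0.00476 without N07) and 0.54 ± 0.25 in N-RAS+/+ livers (limma adjusted p = 0.253).

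Tnfrsf1b, the TNF receptor without a death domain, was called in no comparison. Its groups averaged 8.61 ± 0.28 (SD, n = 3) with CCl4 and 8.74 ± 0.29 with oil in N-RAS-/- livers, and 8.63 ± 0.13 with CCl4 and 8.36 ± 0.53 with oil in N-RAS+/+ livers. In the BDL experiment the means were 8.76 ± 0.12 after BDL and 8.98 ± 0.46 after sham surgery in N-RAS-/- livers, and 8.44 ± 0.23 after BDL and 8.16 ± 0.60 after sham surgery in N-RAS+/+ livers. The widest genotype difference, 0.81 ± 0.27 after sham surgery, was not called (limma adjusted p = 0.397), and none of the 8 genes was called there (0.426% of all genes) or between genotypes after BDL (0.705%). Differences in the response to BDL between genotypes were called for none of the 21144 genes (0.0%) with limma. At an unadjusted p under 0.05 there were 722 higher and 692 lower, none of them among the 8 genes.

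Tnf, the ligand of both TNF receptors, was called higher with CCl4 in N-RAS+/+ livers. Its log2 signals were 3.10 to 3.46 in N-RAS-/- CCl4 livers and 4.97 to 5.93 in N-RAS+/+ CCl4 livers, against 3.39 to 3.66 in N-RAS-/- and 2.86 to 3.45 in N-RAS+/+ oil livers. The N-RAS+/+ CCl4 arrays alone stood above the others of this experiment. CCl4 minus oil was -0.21 in N-RAS-/- livers (limma adjusted p = 0.573) and 2.26 in N-RAS+/+ livers (limma adjusted p = 1.17e-05), and the responses differed by -2.47 (limma adjusted p = 0.00177). After CCl4 the genotypes differed by -2.17 (limma adjusted p = 3.76e-05). With BDL, Tnf was called higher in N-RAS-/- livers (0.96, limma adjusted p = 0.0394) and differed by 0.57 in N-RAS+/+ livers (limma adjusted p = 0.287). Outside the N-RAS+/+ CCl4 group all Tnf signals were at or below 4.84, under the array medians, and no detection call was used, so that these differences rest on dim signals.

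Tnfrsf12a, the TWEAK receptor, rose in both injuries and both genotypes. Its log2 signals were 11.06, 10.91 and 10.90 in N-RAS-/- CCl4 livers and 6.94, 6.96 and 8.66 in N-RAS-/- oil livers. In N-RAS+/+ mice they were 10.37, 10.67 and 10.87 with CCl4 and 7.17, 7.47 and 7.72 with oil. No CCl4 array overlapped an oil array, and oil array N29, at 8.66, was apart from its group. CCl4 minus oil was 3.44 ± 0.34 (10.8-fold, limma adjusted p = 4.58e-06) in N-RAS-/- livers, 4.01 without N29, and 3.19 ± 0.34 (9.11-fold, limma adjusted p = 2.13e-05) in N-RAS+/+ livers.

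After BDL, Tnfrsf12a had 9.31, 9.34 and 9.19 in N-RAS-/- livers and 9.82, 9.64 and 9.76 in N-RAS+/+ livers. After sham surgery it had 6.96, 6.46 and 6.75 in N-RAS-/- and 6.55, 7.38 and 6.69 in N-RAS+/+ livers. BDL and sham arrays were fully apart. BDL minus sham was 2.55 ± 0.20 (5.87-fold, limma adjusted p = 3.11e-06) in N-RAS-/- livers and 2.87 ± 0.20 (7.32-fold, limma adjusted p = 1.67e-06) in N-RAS+/+ livers, where it was 2.37 (limma adjusted p = 7.78e-04) against the single sham array with normal Y-linked signal.

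The genotypes did not overlap for Tnfrsf12a in either injury, and they were ordered oppositely: N-RAS-/- livers were higher after CCl4, by 0.32 ± 0.34 (limma adjusted p = 0.586), and lower after BDL, at -0.47 ± 0.20 (limma adjusted p = 0.36). Neither difference was called. The CCl4 response was not called larger than the BDL response, at 0.88 ± 0.43 in N-RAS-/- livers (limma adjusted p = 0.231; 1.45 and 0.00201 without N29) and 0.31 ± 0.43 in N-RAS+/+ livers (limma adjusted p = 0.815). Bile duct markers also differed with BDL, summing to 4035 to 4617 in N-RAS-/- BDL and 2503 to 3717 in N-RAS+/+ BDL livers. In sham livers they summed to 355 to 591 in N-RAS-/- and 399 to 440 in N-RAS+/+ mice. Bile duct markers were higher with CCl4 too. The markers of monocytes and infiltrating macrophages were at 563 to 684 in N-RAS-/- BDL and 587 to 882 in N-RAS+/+ BDL livers. Sham livers had 153 to 164 and 130 to 161. With CCl4 they were at 414 to 758 in N-RAS-/- and 526 to 1055 in N-RAS+/+ livers. Oil livers had 126 to 250 and 116 to 169. Other markers went the other way, such as those of B cells with BDL. The part of these cells in the Tnfrsf12a, Tnfrsf10b, Tnfrsf22 and Tnfrsf23 rises was not tested.

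The 5 genes whose pattern over the 24 arrays was most like that of Tnfrsf12a were Agfg1 (r = 0.969), Nrg1 (0.958), Sat1 (0.954), Thbs1 (0.954) and Psmd8 (0.953). Nrg1, which encodes the growth factor neuregulin, was higher with CCl4 by 3.95 in N-RAS-/- livers and 3.64 in N-RAS+/+ livers, and with BDL by 2.14 in both. Thbs1, encoding the matrix protein thrombospondin, was higher with CCl4 by 2.90 in N-RAS-/- livers and 3.56 in N-RAS+/+ livers, and with BDL by 2.63 in N-RAS-/- livers and 2.89 in N-RAS+/+ livers. Tnfrsf12a itself correlated with Tnfrsf23 at 0.782, Tnfrsf10b at 0.772 and Tnfrsf22 at 0.707 over the 24 arrays. For deviations from the group means, r was 0.25 with Tnfrsf23, 0.35 with Tnfrsf10b and -0.31 with Tnfrsf22.

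When the groups were ordered by mean, the order differed by gene. For Tnfrsf22 and Tnfrsf23 the CCl4 groups led, and all arrays of the N-RAS-/- CCl4 group, the second in rank, were above all arrays of the third, N-RAS-/- BDL. For Tnfrsf10b the N-RAS+/+ BDL (5.74 ± 0.17, SD, n = 3), N-RAS-/- BDL (5.72 ± 0.26) and N-RAS+/+ CCl4 (5.71 ± 0.08) groups overlapped at the top, with N-RAS-/- CCl4 (5.12 ± 0.49) between them and the 4 controls (4.51 to 4.59). Tnfrsf12a ran N-RAS-/- CCl4 (10.95 ± 0.09), N-RAS+/+ CCl4 (10.64 ± 0.25), N-RAS+/+ BDL (9.74 ± 0.09) and N-RAS-/- BDL (9.28 ± 0.08), each without overlap with the next. For Fas the first 7 group means lay between 6.56 and 6.88 with overlapping neighbours, and N-RAS-/- CCl4 (5.80 ± 0.26) was last.

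Of 20 other TNF receptor genes on the array, CCl4 raised 3 and lowered 3 in N-RAS-/- livers and raised 5 in N-RAS+/+ livers, with medians of -0.035 and 0.33. Over all genes 13.6% were raised and 9.19% lowered in N-RAS-/- livers and 8.08% raised in N-RAS+/+ livers, with medians of -0.024 and 0.013. Eda2r, the receptor of ectodysplasin A2 and a known p53 target, was among the 5. It was at 4.46 to 5.58 in N-RAS-/- CCl4 livers and 6.22 to 7.85 in N-RAS+/+ CCl4 livers, without overlap, and at 3.68 to 4.74 in all oil livers. CCl4 minus oil was 0.89 in N-RAS-/- livers (limma adjusted p = 0.136) and 3.06 in N-RAS+/+ livers (limma adjusted p = 1.32e-04), and the genotypes differed by -2.06 after CCl4 (limma adjusted p = 0.00365). The difference between the 2 responses, -2.17, was not called (limma adjusted p = 0.0596).

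Tnfrsf11b, the soluble decoy osteoprotegerin, rose with CCl4 by 0.57 in N-RAS-/- livers and 0.65 in N-RAS+/+ livers (limma adjusted p = 0.00829 and 0.00542). Ngfr, the low-affinity neurotrophin receptor, was lower by 0.93 in N-RAS-/- livers than in N-RAS+/+ livers after CCl4 (-0.93, limma adjusted p = 8.97e-04). With BDL, 2 of the 20 receptors were called higher and none lower in N-RAS-/- livers, and 1 higher and 1 lower in N-RAS+/+ livers, where all genes gave 7.18% higher and 4.05% lower in N-RAS-/- livers and 4.51% higher and 2.7% lower in N-RAS+/+ livers. Eda2r was higher in both, by 1.08 in N-RAS-/- livers and 0.80 in N-RAS+/+ livers (limma adjusted p = 0.0037 and 0.0313).

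Of 15 other TNF family ligands, none was called with CCl4 in N-RAS-/- livers and 1, Tnf, in N-RAS+/+ livers (22.8% and 15.2% of all genes). After CCl4, Tnf and Lta, the ligand lymphotoxin alpha, were called lower in N-RAS-/- livers (Lta -0.46, limma adjusted p = 0.0441), and none was higher. The median genotype difference of these ligands was -0.26, against -0.035 over all genes. Fasl, Eda, Tnfsf8, Tnfsf9, Tnfsf11 and Tnfsf18 were below the array medians in every group, whereas Lta was above them. No detection call was used, so that the lack of calls for such dim signals says little.

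Of 22 genes that carry death receptor signals, CCl4 raised 6 and lowered none in N-RAS-/- livers, and raised 4 and lowered 1 in N-RAS+/+ livers, with medians of 0.32 and 0.087. Of all genes, 13.6% were raised and 9.19% lowered in N-RAS-/- livers and 8.08% raised and 7.16% lowered in N-RAS+/+ livers, with medians of -0.024 and 0.013. After CCl4, 5 were higher and 1 lower in N-RAS-/- livers than in N-RAS+/+ livers, against 8.72% higher and 5.56% lower among all genes. Fadd, the adaptor that joins Fas and TRAIL receptors to caspase-8, was at 7.50 to 7.71 in N-RAS-/- and 6.43 to 6.85 in N-RAS+/+ CCl4 livers, and at 7.25 to 7.55 in all oil livers. CCl4 minus oil was 0.23 in N-RAS-/- livers (limma adjusted p = 0.31) and -0.71 in N-RAS+/+ livers (limma adjusted p = 0.00479), where Fadd thus fell, and the responses differed by 0.94 (limma adjusted p = 0.0322). Its genotype difference after CCl4, 0.87 (limma adjusted p = 0.00173), ran opposite to that of Fas.

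Tnfaip3 (A20), a brake on NF-kB signalling, was the 1 gene of these called lower in N-RAS-/- livers after CCl4 (-1.72, limma adjusted p = 0.00945), at 5.79 to 7.74 against 8.42 to 8.82 in N-RAS+/+ livers. CCl4 minus oil for Tnfaip3 was 1.07 in N-RAS-/- livers (limma adjusted p = 0.0639) and 2.36 in N-RAS+/+ livers (limma adjusted p = 9.11e-04). These responses differed by -1.29, which was not called (limma adjusted p = 0.252). With BDL Tnfaip3 rose by 1.99 in N-RAS-/- livers and 2.17 in N-RAS+/+ livers (limma adjusted p = 6.53e-04 and 5.07e-04). Traf2, an adaptor of TNF receptors, was higher with CCl4 in N-RAS-/- livers (1.0, limma adjusted p = 3.10e-04) and differed by 0.28 in N-RAS+/+ livers (limma adjusted p = 0.294), while Casp8, the initiator caspase of death receptors, was called in neither (0.24 and 0.14). Mlkl, the executor of necroptosis, rose with CCl4 by 0.70 in N-RAS-/- livers and 0.82 in N-RAS+/+ livers (limma adjusted p = 0.00265 and 0.00151). Its genotype difference after CCl4, N-RAS-/- minus N-RAS+/+, was called at 0.49 (limma adjusted p = 0.0378). After oil this difference was 0.61 and not called (limma adjusted p = 0.0757). The CCl4 responses of Mlkl differed by -0.12 (limma adjusted p = 0.829). For Traf2 the genotype difference after CCl4 was called as well, at 0.57 (limma adjusted p = 0.0263). Its CCl4 responses differed by 0.73, which was not called (limma adjusted p = 0.101).

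Because Tnfrsf10b and Fas are known p53 targets, 15 other p53 targets were counted. CCl4 raised 6 of them in N-RAS-/- livers and 7 in N-RAS+/+ livers and lowered none, with medians of 0.58 and 0.63, against 13.6% and 8.08% raised among all genes and medians of -0.024 and 0.013. Bax, a mitochondrial death effector, rose by 1.07 in N-RAS-/- livers and 0.95 in N-RAS+/+ livers (limma adjusted p = 1.70e-04 and 8.39e-04), and Mdm2, the negative regulator of p53, by 1.11 in N-RAS-/- livers and 1.71 in N-RAS+/+ livers (limma adjusted p = 0.00971 and 8.21e-04). After CCl4, 2 of the 15 were lower in N-RAS-/- livers than in N-RAS+/+ livers, namely Btg2, an inhibitor of proliferation (-1.57, limma adjusted p = 0.00876), and Gdf15, a stress cytokine (-1.67, limma adjusted p = 0.0203), where 5.56% of all genes were lower. BDL raised 3 in N-RAS-/- livers and 2 in N-RAS+/+ livers (7.18% and 4.51% of all genes).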

How the data were processed

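Liver RNA of 24 mice, 3 in each of 8 groups, was measured on Affymetrix arrays. The deposited values are log2 signals per probe set and array, normalized by the authors before deposit by a method not given in the sources used here. The submitters' processing notes name MAS5 without its role. A Cy3 labelling kit is named in 1 label and biotin in another. The deposited linear signals are the authors' group means of the same arrays, and their ratio and p-value columns, which hold their own comparisons, were not used.

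Of 22206 probe sets, 21367 with 1 gene symbol were kept (883 symbols updated with GRCm38.p6), and 143 genes with several were each represented by their brightest probe set on average, leaving 21144 genes. limma 3.58.1 (R 4.3.3) was fitted to the 12 arrays of an experiment, with 1 coefficient per group, contrasts and eBayes, and to all 24 for the 2 comparisons of the CCl4 with the BDL response, with Benjamini-Hochberg adjustment in 12 comparisons. The fit was tested on simulated data. The files give no depth, the number of arrays limits the precision, and no detection call was used for dim signals. A comparison of 3 against 3 arrays cannot go below an exact permutation p of 0.1, so model p values are given. Alternatives were quantile normalization, a filter at the 40th percentile, a floor of 32, 1 fit of all arrays, trended and robust eBayes, the mean of probe sets, the methods' t-test, and leaving out each array, the arrays of low Y-linked signal or N12. Promoter motifs were searched as exact letters in RefSeq windows. Figures were drawn with matplotlib 3.10.9.

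The genes, lists and tests were chosen with earlier results of these data known. All 8 genes are named. Of each other list the 4 genes with the smallest adjusted p in each of 4 comparisons could be named. The 5 genes most alike and the 3 nearest genes on each side were named for the decoys (likeness for Tnfrsf12a too). Cd27, Tnfsf12 and Tnfsf13 were not analysed here.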

Additional observations from a re-analysis of the deposited data

Results flagged for a closer look

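Effects that differed between conditions by a test of the difference itself (limma, 3 arrays per group) are listed for a closer look. The CCl4 response of Fas, N-RAS-/- minus N-RAS+/+, differed by -1.37 on the log2 scale. The CCl4 response exceeded the BDL response for Tnfrsf22 by 1.88 in N-RAS-/- livers and 2.53 in N-RAS+/+ livers, and for Tnfrsf23 by 2.93 in N-RAS-/- livers and 3.77 in N-RAS+/+ livers. The CCl4 response of Fas lay below its BDL response in N-RAS-/- livers, at -1.33. Where CCl4 and BDL responses are compared, injury type and experiment cannot be told apart. All N-RAS-/- sham arrays were low in Y-linked signal.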

How the results depend on the processing

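Counts below are of the 8 genes called in a comparison. With the methods' t-test after adjustment, fewer were called: 3 against 5 for CCl4 in N-RAS+/+ livers, 0 against 1 between genotypes after CCl4, 1 against 2 for BDL in N-RAS-/- livers and 0 against 2 for BDL in N-RAS+/+ livers. With signals floored at 32, 2 genes were called between genotypes after CCl4, against 1, and 0 for the difference of the CCl4 responses, against 1. Trended and robust eBayes called 1 gene between genotypes after oil, against 0 (Tnfrsf1a, 0.70, limma adjusted p = 0.0411). Leaving out 1 array gave 1 to 2 calls between genotypes after CCl4, the second being Tnfrsf10b without N30 (-0.76, limma adjusted p = 0.05), and 0 to 1 for the difference of the CCl4 responses, where Fas was lost without N21, N22, N24, N25, N27, N29, N30 or N32. The cause was not tested. No difference reversed its sign under an alternative among called results. The rises of Tnfrsf22 and Tnfrsf23 with CCl4 and of Tnfrsf12a and Tnfrsf10b with BDL were called without each array in turn in both genotypes. Tnfrsf10b with CCl4 in N-RAS-/- livers was called with the filter (0.59, limma adjusted p = 0.0473) and in 1 fit of all arrays (0.0385). Comparisons with the N-RAS-/- sham group could not be fitted without the arrays of low Y-linked signal. No paired analysis was possible because the groups compared share no replicate numbers. The controls of Tnfrsf23 and Tnfrsf10b were below the array medians, which limits their folds. The same limit holds for Tnfrsf22, whose control group means (5.28 to 5.48) were below the array medians.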
